A study of Mus musculus with 20 samples.

Results

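Leptin receptor signalling and its brakes were followed through 9 genes: the receptor Lepr, the kinase Jak2 and its adaptor Sh2b1, the transcription factors Stat3 and Stat5b, and the regulators Socs3, Ptpn1, Ptpn2 and Ptpn11. They were chosen by name, with earlier results of these data known. A probe set counted for a gene where the platform annotation gave it that gene's symbol and no other, and the brightest over all arrays stood for the gene. The 9 genes were found among 18708 measured genes, with 11 probe sets in all, since Socs3 and Ptpn2 each had 2. All 9 were also among the 14031 genes bright enough to be tested.

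The samples were hypothalamus from diet-induced obese male C57BL/6J mice, fed a diet with 45% fat for 16 weeks from an age of 4 weeks. All 6 groups shared this strain, sex and diet, and neither lean mice nor mice without an injection were among the samples used here. Celastrol, a triterpenoid of the thunder god vine, was injected into the peritoneum and measured at 6 h on 4 arrays, at 1 day on 4 and at 4 days on 3. Its solvent dimethyl sulfoxide (DMSO) served as vehicle control, on 3 arrays at each time. The labels give 25 µl of DMSO per day, and they put a celastrol dose of 250 µg/kg beside the 6 h time alone. Arrays of a group are called biological replicates in the labels, without saying that each came from its own mouse, so p-values measure the spread between these samples.

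Leptin, the hormone that fat cells release in proportion to fat stores, acts in the hypothalamus on the long form of its receptor. The receptor has no enzyme activity of its own. JAK2, bound to it, phosphorylates it, STAT3 docks there and moves to the nucleus, and one of the genes STAT3 turns on is Socs3, whose product blocks the receptor and JAK2. The phosphatases PTP1B (Ptpn1) and TC-PTP (Ptpn2) remove phosphate from JAK2 and STAT3. Obese mice respond weakly to leptin, which is known as leptin resistance. The arrays measured mRNA, not phosphorylation or protein.

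Values below are log2 intensities as deposited, on which 1 unit is a doubling, and differences are celastrol minus DMSO with their standard errors (SE). Adjusted p-values come from limma over all 14031 genes, with 0.05 as the threshold. The intensity of different probe sets has no common scale, so levels are compared within a gene only. Of 15 hypothalamus marker genes 14 were bright enough to be tested and 12 of those lay above the median gene, among them Pmch and Hcrt at 12.94 and 12.61, while Agrp was not tested. After removal of group means, DMSO replicate 3 at 6 h and DMSO replicate 3 at 1 day stood apart on the first principal component, at 11.4 and 9.49 against a range of -6.11 to 5.28 on the other 18 arrays. The differences of the 9 genes at 6 h and 1 day use these arrays, and the values without them are given below. In bulk tissue, fewer cells that express a gene and less RNA per cell cannot be told apart.

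None of the 9 genes passed the threshold in celastrol against DMSO at any time. Over all genes, limma called 0 at 6 h (0%), 60 at 1 day (0.428%) and 11 at 4 days (0.0784%). At an unadjusted p under 0.05, the count was 2 of 9 at 6 h against 7.53% of all genes, 4 of 9 at 1 day against 8.18%, and 2 of 9 at 4 days against 6.56%. At 6 h these were Jak2, lower under celastrol, as were 5.11% of all genes at that level, and Sh2b1, higher, as were 2.42%. At 1 day they were Lepr, Stat3, Ptpn1 and Ptpn11, all higher under celastrol, as were 5.02% of all genes. At 4 days they were Stat3 and Ptpn1, both higher, as were 4.28%. The 9 genes were chosen with earlier results of these data known, so counts beside a share of all genes are only a description.

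More of the 9 genes lay above DMSO at the later times. The mean under celastrol lay above DMSO for 2 of 9 genes at 6 h, where 41.4% of all genes did, for 8 of 9 at 1 day, where 53.9% did, and for 6 of 9 at 4 days, where 54.5% did. The median of the 9 differences was -0.02 at 6 h, 0.10 at 1 day and 0.09 at 4 days, beside -0.02, 0.0066 and 0.0078 over all genes tested. The 6 h count rests on few hundredths of a unit: without the 2 arrays that stand apart it was 5 of 9, with no gene at an unadjusted p under 0.05, while at 1 day 8 of 9 still lay above DMSO and 4 still had an unadjusted p under 0.05. The counts at an unadjusted p under 0.05 also turned on single arrays: that at 1 day was 2 without DMSO replicate 1 at 1 day, and that at 4 days was 1 without any 1 of DMSO replicates 1, 2 and 3 or celastrol replicates 1 and 3 at 4 days, and 4 with the 2 groups alone in the model. The change of each gene's difference between 6 h and 1 day, or 6 h and 4 days, was also tested and passed for none of the 9, with 1 gene of all called for the first (0.00713%) and 2 for the second (0.0143%).

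**Figure D1:**
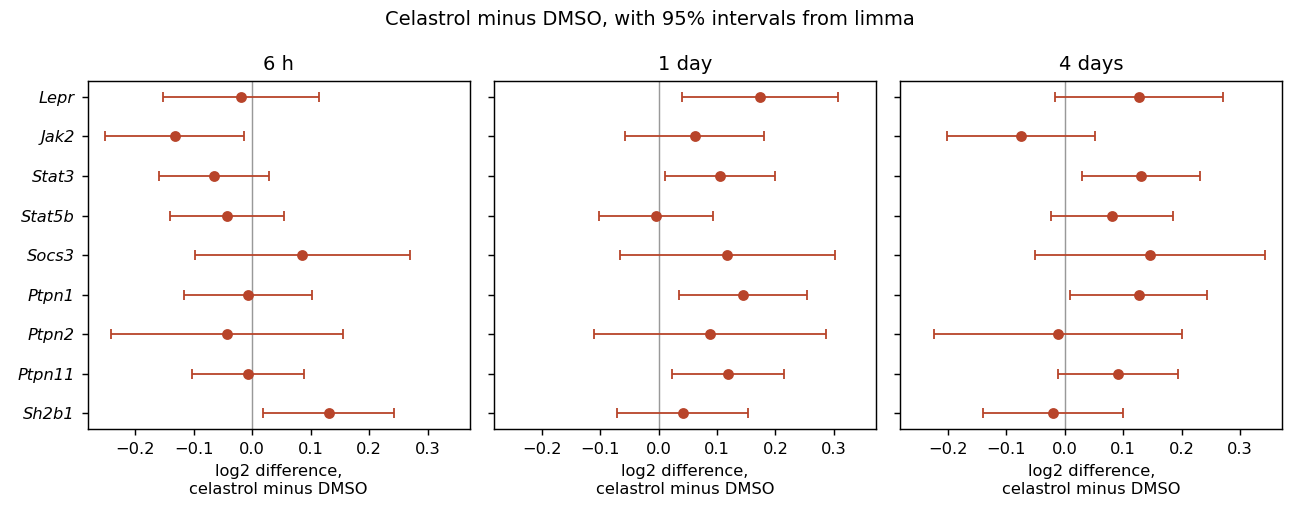
Difference of each of the 9 genes, celastrol minus DMSO in log2 units, at 6 h, 1 day and 4 days, with 95% confidence intervals from limma. At 6 h the differences lie between -0.13 and 0.13. Before any adjustment for the number of genes tested, the interval of Jak2 lies below 0 and that of Sh2b1 above 0 at 6 h. Intervals also lie above 0 for Lepr, Stat3, Ptpn1 and Ptpn11 at 1 day, and for Stat3 and Ptpn1 at 4 days.

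Lepr encodes the leptin receptor, a single-pass receptor of the cytokine receptor family, and lies at chr4:101717137-101815352 of GRCm38.p6 in the RefSeq table. Its probe set averaged 7.99 over the 20 arrays. At 1 day it measured 8.25, 8.15, 8.13 and 8.24 in celastrol mice, against 7.84, 8.04 and 8.17 in DMSO mice. Of the 4 celastrol arrays 2 exceeded the highest DMSO array, and the celastrol arrays were closer together (SD 0.060) than the DMSO arrays (SD 0.16). The difference was 0.17 ± 0.064, a 1.13-fold higher level with a 95% interval of 0.04 to 0.31 in log2 units (limma, unadjusted p = 0.0136, adjusted p = 0.414). Without the 2 arrays that stand apart the difference was 0.25 (adjusted p = 0.0962).

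At 6 h Lepr measured 7.84, 7.79, 7.77 and 7.90 in celastrol mice, against 7.79, 7.95 and 7.80 in DMSO mice. The groups overlapped and differed by -0.02 ± 0.064, and by -0.04 without the 2 arrays that stand apart. At 4 days it measured 8.16, 8.03 and 8.09 in celastrol mice, against 8.01, 7.98 and 7.90 in DMSO mice. Every celastrol array was above every DMSO array there, as it was for 8.94% of all genes, and the difference of 0.13 ± 0.068 had an adjusted p of 0.801.

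The largest move of Lepr was between times and not between drug and vehicle. In celastrol mice it was higher at 1 day than at 6 h by 0.37 ± 0.059 (limma, adjusted p = 0.0168). No array at 1 day lay below any at 6 h, and the share of all genes for which this held was not counted. Between these 2 groups 17.1% of all genes had an unadjusted p under 0.05 in limma. Lepr was the only 1 of the 9 called there, among 19 genes of all (0.135%). The adjusted p rose to 0.0900 without celastrol replicate 2 at 6 h, to 0.0569 without celastrol replicate 3 at 6 h and to 0.0666 without celastrol replicate 1 at 1 day, with differences of 0.35 in each case. In celastrol mice 4 days against 6 h gave 0.26 ± 0.064 (adjusted p = 0.0538), where 126 genes of all were called (0.898%).

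In DMSO mice Lepr was also higher at 1 day than at 6 h, by 0.17 ± 0.068 (limma, unadjusted p = 0.0202, adjusted p = 0.297), where 20 genes of all were called (0.143%). Both arrays that stand apart enter this difference, and without them it was 0.08 (adjusted p = 0.760). The increase in celastrol mice exceeded that in DMSO mice by 0.19 ± 0.090 (adjusted p = 0.478), and by 0.29 without the 2 arrays (adjusted p = 0.313).

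In celastrol mice, marker levels of neighbouring tissue were lower on average at 1 day than at 6 h, with overlapping ranges for both lists. The mean of 10 thalamus markers ranged from 9.57 to 9.69 in celastrol mice at 1 day and from 9.66 to 9.84 in celastrol mice at 6 h. The mean of 6 pituitary markers ranged from 7.76 to 8.29 in celastrol mice at 1 day and from 8.23 to 8.72 in celastrol mice at 6 h. In DMSO mice the pituitary mean averaged 8.24 at 1 day and 8.26 at 6 h, and the thalamus mean ranged from 9.62 to 9.76 at 1 day and from 9.77 to 10.25 at 6 h. Over the 20 arrays, Lepr had a Pearson correlation of -0.62 with the thalamus mean and -0.64 with the pituitary mean. With group means removed these were -0.43 and -0.42. The arrays share their normalization, and the part of these tissues in the Lepr values was not tested.

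**Figure D2:**
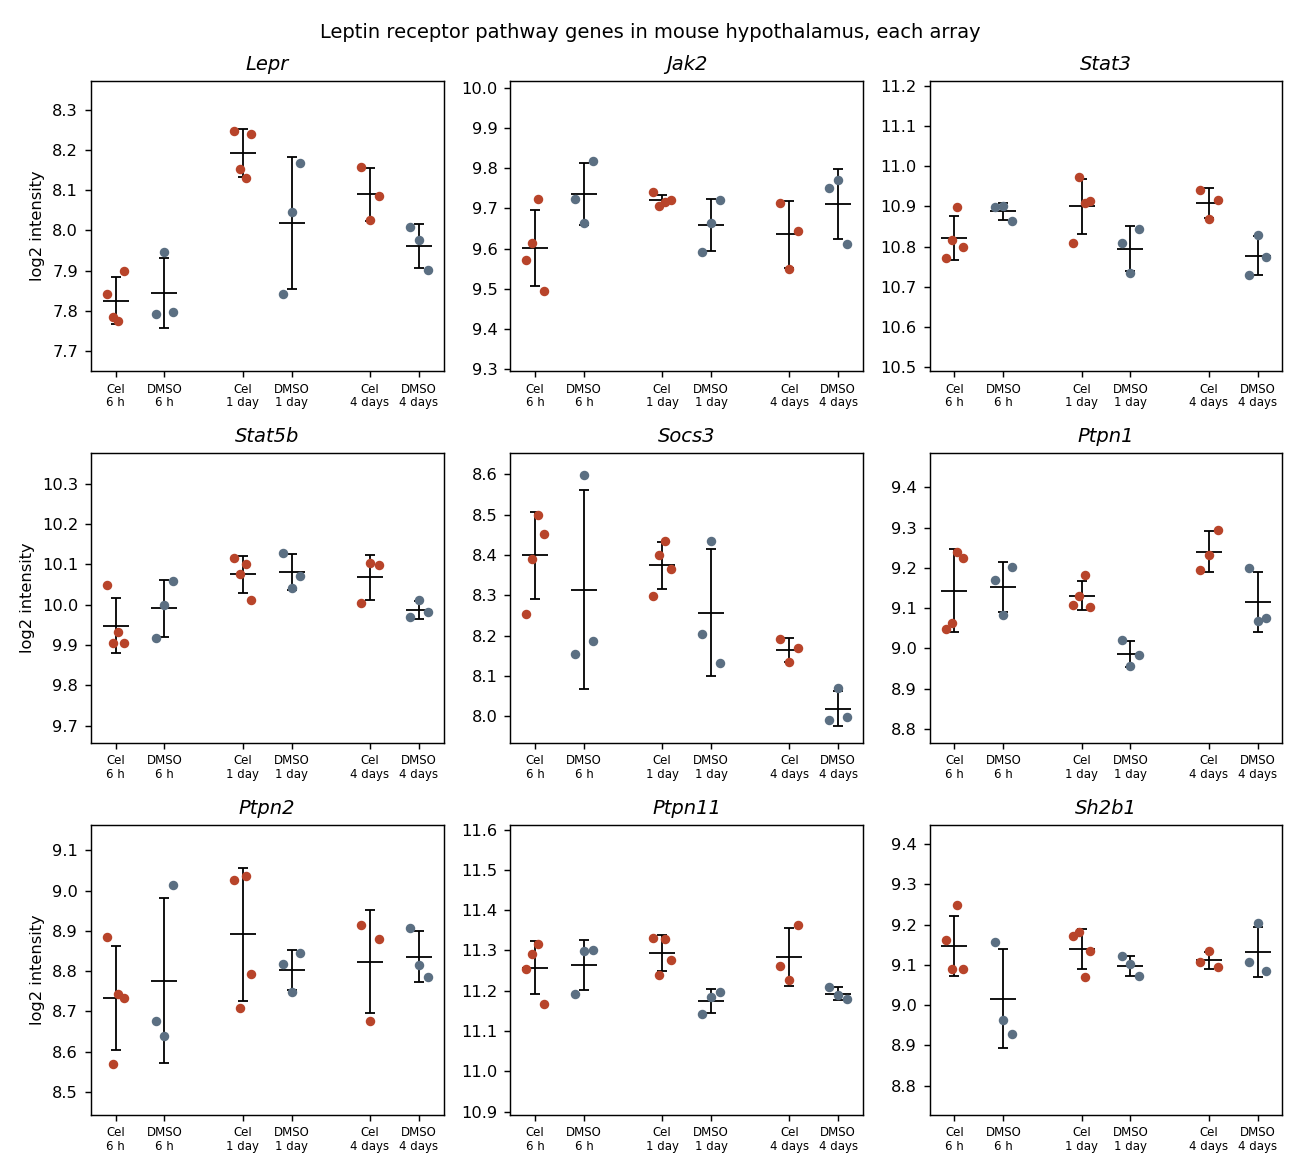
Log2 intensity of the 9 genes on each of the 20 arrays, with celastrol left of DMSO at each time, black bars for group means and error bars for the SD (n = 3 or 4). Lepr is low in both groups at 6 h, and Socs3 is low in both groups at 4 days.

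Jak2, the kinase that is bound to the receptor, averaged 9.68 and lies at chr19:29251803-29313095. At 6 h it measured 9.57, 9.61, 9.72 and 9.50 in celastrol mice, against 9.72, 9.66 and 9.82 in DMSO mice. Only 1 celastrol array was inside the DMSO range, and the difference was -0.13 ± 0.057 (limma, unadjusted p = 0.0305, adjusted p = 0.652). Without the 2 arrays that stand apart it was -0.09. At 1 day the difference was 0.06 ± 0.057 and at 4 days -0.07 ± 0.061, with adjusted p of 0.828 and 0.909, and at 1 day it was 0.09 without the 2 arrays. Jak2 thus had no common direction over the times. At 1 day its 4 celastrol arrays were close together, from 9.71 to 9.74 (SD 0.014).

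Sh2b1 encodes an adaptor that binds JAK2 and enhances its activity, and mice without it become obese. The gene lies at chr7:126466993-126476650, and its probe set averaged 9.11. At 6 h it measured 9.16, 9.09, 9.25 and 9.09 in celastrol mice, against 9.16, 8.96 and 8.93 in DMSO mice. The 2 low DMSO arrays set the difference of 0.13 ± 0.054 (limma, unadjusted p = 0.0243, adjusted p = 0.651), and the highest DMSO array lay within the celastrol range. The lowest DMSO array is 1 of the 2 that stand apart, and without these the difference was 0.09 (adjusted p = 0.999). The difference was 0.04 ± 0.054 at 1 day, or 0.03 without the 2 arrays, and -0.02 ± 0.057 at 4 days. Sh2b1 and Jak2 therefore lay on opposite sides of DMSO at 6 h, neither past the threshold. Beside both stands the thalamus list at 6 h, of which 8 of 10 members were lower under celastrol, with means of 9.66 to 9.84 in celastrol mice and 9.77 to 10.25 in DMSO mice; its part in these values was not tested.

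Stat3, the transcription factor through which the receptor acts on most of its known target genes, averaged 10.85 and varied little, with an SD within groups of 0.052. It lies at chr11:100886806-100939594. At 4 days it measured 10.94, 10.87 and 10.92 in celastrol mice, against 10.73, 10.83 and 10.77 in DMSO mice. All celastrol arrays were above all DMSO arrays, and the difference was 0.13 ± 0.048, or 1.09-fold (limma, unadjusted p = 0.0139, adjusted p = 0.610). At 1 day it measured 10.81, 10.97, 10.91 and 10.91 in celastrol mice, against 10.81, 10.73 and 10.84 in DMSO mice. Of the celastrol arrays 3 lay above the DMSO range, and the difference was 0.10 ± 0.045 (adjusted p = 0.533), or 0.13 without the 2 arrays that stand apart (adjusted p = 0.246).

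At 6 h Stat3 lay on the other side, at 10.77, 10.82, 10.90 and 10.80 in celastrol mice, against 10.90, 10.90 and 10.86 in DMSO mice. The groups overlapped, and the difference was -0.07 ± 0.045 (adjusted p = 0.721), or -0.08 without the 2 arrays. The difference at 4 days exceeded that at 6 h by 0.20 ± 0.066 (limma, unadjusted p = 0.00769, adjusted p = 0.612), and that at 1 day did so by 0.17 ± 0.064 (adjusted p = 0.426). A change of direction of Stat3 between the times was thus not called.

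Stat5b is a second STAT that the receptor can activate, and it also carries growth hormone and prolactin signals. It lies on the same chromosome as Stat3, at chr11:100780731-100859004. It averaged 10.02, and its 6 group means spanned 0.13. Its differences were -0.04 ± 0.046 at 6 h, -0.0047 ± 0.046 at 1 day and 0.08 ± 0.050 at 4 days. The 95% interval at 1 day, from -0.102 to 0.092, holds no difference larger than 0.102 in size. No time had an adjusted p below 0.819 for this gene. Without the 2 arrays that stand apart the differences at 6 h and 1 day were -0.0097 and -0.0095.

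Socs3, the suppressor that STAT3 induces and that inhibits the receptor and JAK2, lies at chr11:117966079-117970336. Because its transcription is a usual readout of STAT3 activity, the 250 bases before its start were searched for the STAT-type motif TTCNNNGAA, which reads the same on both strands. The search covered 11 RefSeq promoter windows of GRCm38.p6, from 8 of the 9 genes. No window of Ptpn2 was searched, so the count says nothing on that gene. The motif was in 1 of the 11, that of Socs3, and in 7.02% of all 32851 windows. In the Socs3 window, at chr11:117969367-117969616 on the minus strand, the motif is in capitals below. It starts 154 bases before the transcription start that this window precedes. Shown beside it are 1 of the 2 windows of Lepr (chr4:101717157-101717406, plus strand) and that of Ptpn1 (chr2:167932077-167932326, plus strand). These 2 genes had larger differences at 1 day, and their windows hold no match. All windows shown lie within the spans given for these genes, so the starts they precede are not the outermost ones. The GC content of the windows shown is 71.6% for Socs3, 58.4% for Lepr and 75.2% for Ptpn1, against a median of 52.4% over all windows.
Socs3: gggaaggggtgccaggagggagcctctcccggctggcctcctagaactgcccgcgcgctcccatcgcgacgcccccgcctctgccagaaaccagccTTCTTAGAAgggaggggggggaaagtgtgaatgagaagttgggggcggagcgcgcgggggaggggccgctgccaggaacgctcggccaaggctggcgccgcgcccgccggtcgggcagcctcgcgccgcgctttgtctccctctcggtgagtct
Lepr: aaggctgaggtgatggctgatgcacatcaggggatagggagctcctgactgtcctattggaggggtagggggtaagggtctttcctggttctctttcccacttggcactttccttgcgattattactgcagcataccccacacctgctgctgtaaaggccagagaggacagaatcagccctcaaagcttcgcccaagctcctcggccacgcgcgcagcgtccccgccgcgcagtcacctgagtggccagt
Ptpn1: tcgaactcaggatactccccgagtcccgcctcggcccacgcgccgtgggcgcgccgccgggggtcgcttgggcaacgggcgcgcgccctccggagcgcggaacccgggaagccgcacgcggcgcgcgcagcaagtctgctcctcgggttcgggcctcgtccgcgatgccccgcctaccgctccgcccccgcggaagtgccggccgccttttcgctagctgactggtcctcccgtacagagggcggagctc
A match is a description of letters and not a bound site, and these arrays do not measure binding.

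In the values as deposited, Socs3 was the 1 gene of the 9 whose mean under celastrol lay above DMSO at all 3 times, as it did for 12.3% of all genes. This does not set it apart: with array weights its 6 h difference was -0.0034, without the 2 arrays that stand apart Ptpn1 and Ptpn11 were above at all 3 times as well, and so was Sh2b1 without DMSO replicate 2 at 4 days. At 4 days it measured 8.19, 8.13 and 8.17 in celastrol mice, against 7.99, 8.07 and 7.997 in DMSO mice. The groups did not overlap, and the difference was 0.15 ± 0.094 (limma, adjusted p = 0.872). At 1 day it measured 8.30, 8.40, 8.43 and 8.36 in celastrol mice, against 8.20, 8.43 and 8.13 in DMSO mice, which overlapped and differed by 0.12 ± 0.088 (adjusted p = 0.769). At 6 h it measured 8.25, 8.39, 8.50 and 8.45 in celastrol mice, against 8.16, 8.60 and 8.19 in DMSO mice. A single DMSO array was the highest of all 7 there, and the difference was 0.09 ± 0.088. Without the 2 arrays that stand apart the differences were 0.02 at 6 h and 0.06 at 1 day. Averaged over the times the difference was 0.12 ± 0.052 (unadjusted p = 0.0371, adjusted p = 0.517).

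The brightest Socs3 probe set moved more between times than between drug and vehicle. In DMSO mice its level at 4 days was below that at 6 h by a log2 difference of -0.30 ± 0.094 (limma, unadjusted p = 0.00537, adjusted p = 0.257), where 4 genes of all were called (0.0285%), and without the 2 arrays it was -0.36 (adjusted p = 0.242). In celastrol mice the same difference was -0.23 ± 0.088 (adjusted p = 0.148). Neither passed, and the 2 groups shared the direction. The second Socs3 probe set was dimmer, at 7.27, and had a correlation of 0.61 with the first over the 20 arrays. It gave 0.27 ± 0.12 at 6 h (adjusted p = 0.751 over all probe sets), -0.0047 at 1 day and -0.03 at 4 days, so the 2 probe sets disagreed on the sign at 1 day and 4 days. In DMSO mice it measured 7.31, 7.35 and 6.95 at 6 h and 7.24, 7.13 and 7.19 at 4 days. The later arrays lay within the 6 h range, so the fall of the first probe set in DMSO mice was not seen. In celastrol mice it measured 7.41, 7.51, 7.58 and 7.40 at 6 h and 7.12, 7.18 and 7.18 at 4 days, lower on every array.

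Ptpn1 encodes PTP1B, the phosphatase that removes phosphate from JAK2, and lies at chr2:167930750-167979385. At 1 day it measured 9.11, 9.13, 9.18 and 9.10 in celastrol mice, against 9.02, 8.96 and 8.98 in DMSO mice. All 4 celastrol arrays were above all 3 DMSO arrays. The difference was 0.14 ± 0.052, or 1.11-fold (limma, unadjusted p = 0.0126, adjusted p = 0.407). It was the smallest p of the 9 genes at this time and ranked 435 among the 14031 genes. Without the 2 arrays that stand apart the difference was also 0.14.

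At 4 days Ptpn1 measured 9.19, 9.23 and 9.30 in celastrol mice, against 9.20, 9.07 and 9.07 in DMSO mice. The groups overlapped by 1 array, and the difference was 0.13 ± 0.056 (limma, adjusted p = 0.735). At 6 h it was -0.0077 ± 0.052, or 0.02 without the 2 arrays. The DMSO mice were lower at 1 day than at 6 h by a log2 difference of -0.16 ± 0.056 (unadjusted p = 0.0085, adjusted p = 0.225), whereas the celastrol mice differed by -0.01 ± 0.049 between these times. Neither change was called, and the difference between the 2 changes, 0.15 ± 0.074, was not called either (adjusted p = 0.492).

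Ptpn11 encodes SHP2, which docks on the phosphorylated receptor and passes its signal to the MAP kinases, and it lies at chr5:121130533-121191397. Its probe set averaged 11.25. At 1 day it measured 11.33, 11.24, 11.33 and 11.28 in celastrol mice, against 11.14, 11.19 and 11.20 in DMSO mice. At 4 days it measured 11.26, 11.23 and 11.36 in celastrol mice, against 11.21, 11.19 and 11.18 in DMSO mice. Celastrol and DMSO arrays did not overlap at either time. The differences were 0.12 ± 0.046 at 1 day (limma, unadjusted p = 0.0177, adjusted p = 0.449) and 0.09 ± 0.049 at 4 days (adjusted p = 0.801), against -0.0070 ± 0.046 at 6 h. Without the 2 arrays that stand apart they were 0.13 at 1 day and 0.01 at 6 h. Over all genes, celastrol arrays lay above DMSO arrays without overlap for 4.7% at 1 day, where Ptpn1 and Ptpn11 did so, and for 8.94% at 4 days, where Lepr, Stat3, Socs3 and Ptpn11 did so. None of the 9 lay wholly below DMSO at any time.

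A list of 15 glucocorticoid-induced genes moved the same way. All 15 were higher under celastrol at 1 day and at 4 days. Past the threshold were 9 and 3, against 0.428% and 0.0784% of all genes. The mean of the list ranged from 10.59 to 10.76 in celastrol mice and from 10.02 to 10.14 in DMSO mice at 1 day. Ptpn11 correlated with this mean over the 20 arrays at r = 0.79, and at 0.58 with group means removed, as a description over arrays that share their normalization. Of the other 8 genes Socs3 had the highest correlation with it, 0.61. Among markers of other cells, 7 of 9 oligodendrocyte genes at 1 day and 8 of 9 at 4 days were lower under celastrol, with medians of -0.11 and -0.15. None of these passed the threshold. All 6 pituitary markers were lower at 1 day, also without a call. Calls at 1 day were 1 of 10 astrocyte markers, lower, and 1 of 9 tanycyte and ependymal markers, higher. Of 9 endothelial markers 1 was called higher and 1 lower. The part of any of these lists in the values of the 9 genes was not tested.

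Ptpn2 encodes TC-PTP, a phosphatase closely related to PTP1B that acts on STAT3 in the nucleus. It averaged 8.81 and was the most variable of the 9, with an SD within groups of 0.137, larger than in 90.3% of genes. It measured 9.03, 8.71, 9.04 and 8.79 in celastrol mice at 1 day, against 8.82, 8.75 and 8.84 in DMSO mice. The celastrol arrays spread to both sides of the DMSO arrays. The differences were -0.04 ± 0.095 at 6 h, 0.09 ± 0.095 at 1 day and -0.01 ± 0.10 at 4 days, with adjusted p from limma of 0.923, 0.860 and 0.994. The 95% interval at 1 day, from -0.11 to 0.29, leaves room for a difference as large as that of Lepr. Its 2 probe sets were hardly correlated over the arrays (0.13), and the second gave -0.09, 0.08 and 0.08 at the 3 times. After removal of group means Ptpn2 had a correlation of 0.60 with the component on which the 2 DMSO arrays stand apart, the highest of the 9, and without those arrays its difference was 0.08 at 6 h and 0.11 at 1 day.

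The 9 genes varied little with each other. With group means removed, the 36 pairs had correlations from -0.37 (Socs3 and Ptpn2) to 0.54 (Jak2 and Ptpn11) over the 20 arrays. The genes most like each of the 9 over the 20 arrays were, for Lepr, Mir136 (r = 0.88), Slc7a4 (0.85) and Katnal2 (0.84), for Stat3, Ace (0.81), Cyp4f15 (0.80) and Tmem74 (0.79), and for Socs3, Ncf1 (0.77), Pim3 (0.76) and Hrk (0.76). For Ptpn1 they were Adcy6 (0.82), Trio (0.81) and Efnb2 (0.80), and for Ptpn11 Pld1 (0.87), Setdb2 (0.86) and Azin1 (0.84). The remaining genes had Zfp131 (0.83), Asb7 (0.82) and Etf1 (0.78) for Jak2, Tmem60 (0.82), Psmb4 (0.82) and Stk35 (0.78) for Stat5b, Pa2g4 (0.85), Dnajb4 (0.85) and Sod2 (0.84) for Ptpn2, and Ccdc163 (0.76), Snora69 (0.72) and Slc30a10 (0.70) for Sh2b1. These are the highest values among 14031 genes and carry no test. They keep the group means, unlike the correlations of the 36 pairs, and so hold shifts shared between groups. With group means removed they ranged from 0.40 (Pim3 with Socs3) to 0.91 (Pa2g4 with Ptpn2).

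Beyond the 9 genes, 67 other genes of the pathway were listed by role, and 53 were tested. Under celastrol 16 of 53 lay above DMSO at 6 h, 30 at 1 day and 36 at 4 days, where 41.4%, 53.9% and 54.5% of all genes did, with medians of -0.03, 0.03 and 0.02. Past the threshold were 0, 1 and 0 of the 53, against 0%, 0.428% and 0.0784% of all genes. Arrays did not overlap, with celastrol higher, for 0, 7 and 6 of the 53, and with celastrol lower for 6, 1 and 2. Over all genes the share with celastrol lower was 4.45% at 6 h, 3.14% at 1 day and 5.46% at 4 days, and with celastrol higher 1.85%, 4.7% and 8.94%.

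**Figure D3:**
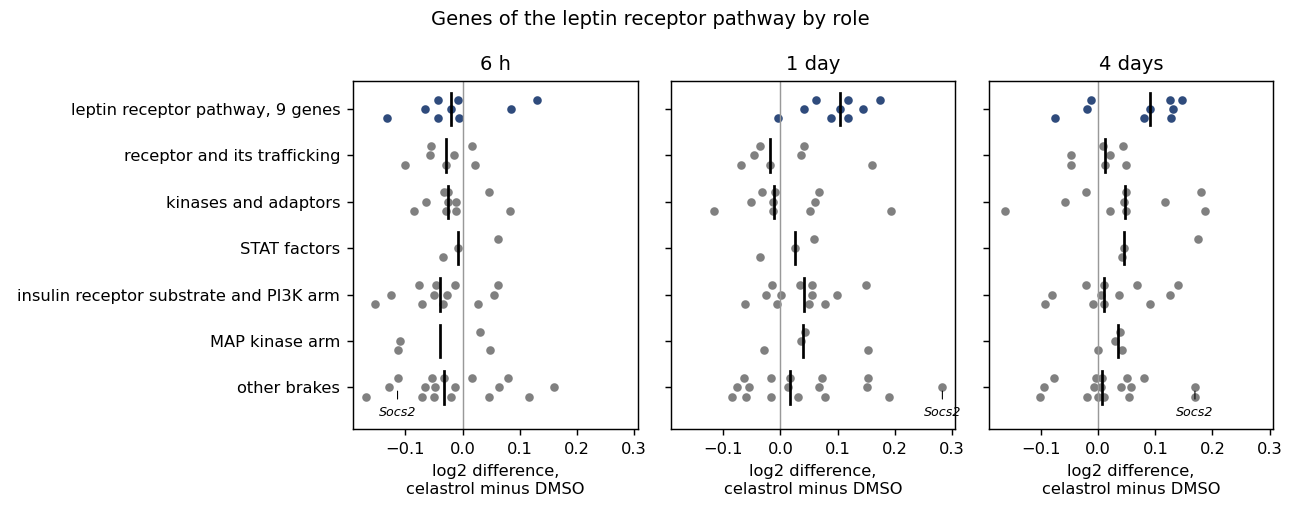
Difference, celastrol minus DMSO in log2 units, of the 53 tested pathway genes beside the 9, grouped by role, with each list's median. All 6 list medians lie below 0 at 6 h, as does the median over all genes tested (-0.015), above which that of the STAT list lies (-0.0085). At 1 day the medians of the receptor list and the kinase list still lie below 0, while that over all genes tested is 0.0066.

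The 1 call was Socs2, a suppressor of cytokine signalling that acts chiefly on the growth hormone receptor. At 1 day it measured 8.59, 8.70, 8.77 and 8.70 in celastrol mice, against 8.27, 8.51 and 8.44 in DMSO mice. All celastrol arrays were above all DMSO arrays, and Socs2 was higher under celastrol by 0.28 ± 0.058, or 1.22-fold (limma, adjusted p = 0.0354). From 6 h to 1 day Socs2 differed by 0.17 ± 0.054 in celastrol mice (adjusted p = 0.134) and by -0.23 ± 0.062 in DMSO mice (adjusted p = 0.129). The call was lost without DMSO replicate 1 at 1 day, the lowest of the 7 arrays, where the difference was 0.22 (adjusted p = 0.277), and without 5 other single arrays in turn, with adjusted p from 0.0505 to 0.122. It was also lost without the 2 arrays that stand apart (adjusted p = 0.0649), although the difference was then 0.30.

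Socs2 stood on the other side at 6 h. It measured 8.50, 8.45, 8.59 and 8.54 in celastrol mice at 6 h, against 8.62, 8.59 and 8.70 in DMSO mice, a difference of -0.11 ± 0.058 (limma, adjusted p = 0.675). Every celastrol array lay below every DMSO array, but the nearest pair, both 8.59 when rounded, by less than 0.01. At 4 days it measured 8.59, 8.57 and 8.65 in celastrol mice, against 8.34, 8.51 and 8.44 in DMSO mice, again without overlap, and the difference was 0.17 ± 0.062 (adjusted p = 0.610).

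Of the receptor's trafficking partners, Leprot, whose product lowers the number of leptin receptors at the cell surface, had the smallest p at 1 day. It measured 8.49, 8.52, 8.56 and 8.50 in celastrol mice, against 8.26, 8.34 and 8.46 in DMSO mice. The groups did not overlap, and the difference was 0.16 ± 0.058 (limma, unadjusted p = 0.0122, adjusted p = 0.404), or 0.21 without the 2 arrays that stand apart (adjusted p = 0.124). The size was close to that of Lepr itself at this time, 0.17. At 6 h and 4 days Leprot differed by less than its spread between arrays. The receptor list had 7 tested members, of which 2, 3 and 5 lay above DMSO at 6 h, 1 day and 4 days.

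Of 10 kinases and adaptors 2, 4 and 7 lay above DMSO at 6 h, 1 day and 4 days, and none passed. The adaptor Sh2b2, a relative of Sh2b1, was higher by 0.19 at 1 day (limma, adjusted p = 0.561), the kinase Tyk2 by 0.18 at 4 days (adjusted p = 0.751), and Gab1 had differences of -0.12 at 1 day and -0.16 at 4 days. Of the 3 other STAT genes tested, Stat2, which carries interferon signals, had the largest difference, 0.17 at 4 days (adjusted p = 0.538).

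The insulin receptor substrate and PI3K arm, through which leptin and insulin signals meet, had 12 tested genes, of which 3, 8 and 8 lay above DMSO. Irs1 had a difference of -0.12 at 6 h (limma, adjusted p = 0.635), Pde3b -0.15 at 6 h and 0.15 at 1 day, and Foxo1, which opposes STAT3 at the genes of feeding neurons, 0.14 at 4 days (adjusted p = 0.703). Of the 4 tested genes of the MAP kinase arm, Rps6ka3 had -0.11 at 6 h and 0.15 at 1 day (adjusted p = 0.660 and 0.372).

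Of 17 other brakes 6, 10 and 10 lay above DMSO at 6 h, 1 day and 4 days. Apart from Socs2, the STAT5-induced suppressor Cish was higher by 0.19 at 1 day (limma, adjusted p = 0.514), Socs1 by 0.16 at 6 h (adjusted p = 0.662) and Rapgef3, which encodes the cyclic AMP sensor EPAC1, by 0.17 at 4 days (adjusted p = 0.703). None of these passed. The remaining genes with the first or next smallest p in their list at some time were Lrp1, Lrp2, Il6st, Adipor1, Rock1, Stat5a, Stat6, Irs2, Irs4, Sos1 and Map2k2, and no adjusted p of these at those times was below 0.652.

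Genes that STAT3 is known to induce were read as a further layer. Of 14 tested, Socs3 included, 9 lay above DMSO at 6 h, 12 at 1 day and 12 at 4 days, with medians of 0.04, 0.15 and 0.15. Past the threshold were 0, 2 and 0 of the 14, against 0%, 0.428% and 0.0784% of all genes. The glucocorticoid-induced list, with medians of 0.07, 0.68 and 0.31 and 0, 9 and 3 genes past the threshold, was higher at the same times, and its part in these values was not tested. Osmr, the oncostatin M receptor, was higher under celastrol than under DMSO at 1 day by 1.19 ± 0.22 (limma, adjusted p = 0.0165). It measured 8.96, 9.18, 9.38 and 9.12 in celastrol mice, against 8.05, 8.03 and 7.84 in DMSO mice. The Osmr call was lost without any 1 of the DMSO replicates 1, 2 and 3 at 1 day (adjusted p = 0.0748, 0.0674 and 0.0705) and without celastrol replicate 3 at 1 day (0.0755), with differences of at least 1.12 each time, and without the 2 arrays that stand apart (0.0676). At 6 h Osmr measured 8.99 to 9.34 in celastrol mice, against 8.08, 9.29 and 8.64 in DMSO mice, so 1 DMSO array reached the celastrol range at that time. From 6 h to 1 day Osmr differed by 0.04 ± 0.20 in celastrol mice (limma, adjusted p = 0.934). In DMSO mice it differed by -0.70 ± 0.23 between these times (adjusted p = 0.219), and neither change was called.

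Serpina3n, an inhibitor of serine proteases and the second call, was higher at 1 day by 0.32 ± 0.070 (limma, adjusted p = 0.0449), with 12.48, 12.43, 12.41 and 12.34 in celastrol mice, against 12.13, 11.99 and 12.16 in DMSO mice. Its call was lost without any 1 array of either 1 day group and without 6 arrays of other times, 13 of 20 single arrays in all, with adjusted p up to 0.328 (without DMSO replicate 2 at 1 day, where the difference was 0.27), and without the 2 arrays that stand apart (adjusted p = 0.0631). At 4 days it differed by 0.31 and Osmr by 0.99, with adjusted p of 0.235 and 0.211. Lcn2, which encodes lipocalin 2, had the largest difference of the list at 4 days, 2.36 ± 0.60 (adjusted p = 0.282). At 6 h the smallest p belonged to Cebpb, 0.19 (adjusted p = 0.609), and Bcl3, 0.28 (adjusted p = 0.633). Several genes of this list, Osmr and Serpina3n among them, also respond to other cytokines.

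**Figure D4:**
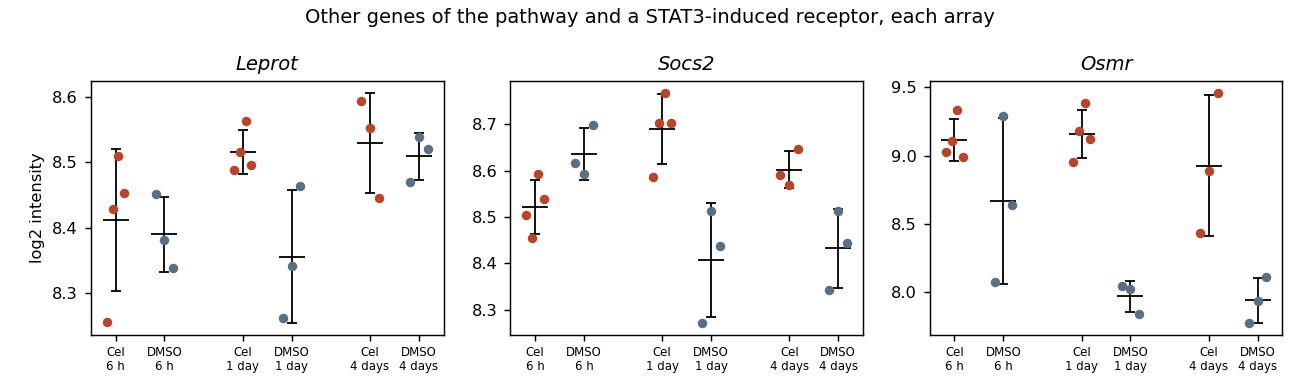
Log2 intensity of Leprot, Socs2 and Osmr on each array, with celastrol left of DMSO at each time, black bars for means and error bars for the SD (n = 3 or 4); each panel has its own axis range. Socs2 lies below DMSO on all celastrol arrays at 6 h and above it on all at 1 day and 4 days.

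The leptin-responsive neuron list, which holds peptides and receptors of feeding circuits, had 16 tested genes. Of these 6, 7 and 6 lay above DMSO at 6 h, 1 day and 4 days, with medians of -0.0058, -0.01 and -0.05. The 1 call was Serpina3n at 1 day, which is also on the STAT3-induced list. Trh, the thyrotropin-releasing hormone gene that leptin induces, had 0.30 ± 0.082 at 1 day (limma, adjusted p = 0.156). Glp1r and Prlh were higher by 0.17 and 0.18 at 6 h (adjusted p = 0.581 and 0.660), and Gal by 0.16 at 4 days (adjusted p = 0.735).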

How the data were processed

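RNA from hypothalamus was labelled with biotin for Affymetrix arrays, per the labels' protocols. The deposited table holds log2 intensities for 20 arrays and 23492 probe sets; the submitters' processing notes name RMA, whose version is not given in the sources used here. RMA equalises the distributions of the arrays, so a shift shared by most genes would not be seen. Array medians lay between 8.60 and 8.65, and no pair of arrays was identical. In the platform annotation 20232 probe sets had 1 symbol, 1395 had several and 1865 had none; 20182 single-symbol probe sets matched the RefSeq table by Entrez ID. Of 18708 genes, those whose brightest probe set averaged at least 7.07, the 25th percentile, were tested.

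A model with 6 group means was fitted with limma 3.58.1 in R 4.3.3 (14 residual and 4.94 prior degrees of freedom), two-sided, with Benjamini-Hochberg adjustment over 14031 genes. For arrays, their number limits the precision: the median SE of a member's difference was 0.054 at 6 h, 0.054 at 1 day and 0.057 at 4 days. The labels name no batch or date. Alternatives were the filter, scaling, probe set rule, groups in the model, weights, prior, replicate block and left-out arrays. The members, lists and the 2 arrays set apart were chosen with earlier results of these data known. Named pathway genes were those past the threshold and, per list and time, the 2 with the smallest p; likeness gives the 3 highest correlations per gene, without predicted genes. The fit was tested on simulated data. Promoter sequences are RefSeq windows.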

Additional observations from a re-analysis of the deposited data

Results flagged for a closer look

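Socs2, which had celastrol arrays wholly below DMSO arrays at 6 h and wholly above them at 1 day and at 4 days, stood on opposite sides of DMSO at these times. Its celastrol difference at 1 day exceeded that at 6 h by 0.40 ± 0.083 (limma, unadjusted p = 0.000121, adjusted p = 0.205), and its difference at 4 days exceeded that at 6 h by 0.28 ± 0.085 (unadjusted p = 0.00365, adjusted p = 0.612). The test of the change did not pass at either time. The 2 comparisons share the 6 h arrays, of which the highest celastrol and the lowest DMSO array both round to 8.59. In groups of 4 arrays, no array of the 9 genes or of the further genes examined lay far enough from the other 3 to be singled out.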

How the results depend on the processing

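None of the 9 genes passed the threshold at any time under any alternative run. Of 1063 values of single genes under alternatives 1026 kept their direction and 37 turned; no member gained a call. All turned values were small. At 6 h Ptpn1 (reported -0.0077) was 0.0013 with arrays centred on their medians, 0.015 after quantile normalization, 0.0089 with array weights and 0.018 without the 2 arrays that stand apart; Ptpn11 (-0.0070) was 0.0020, 0.016, 0.011 with the replicate block and 0.012 without the 2 arrays; Ptpn2 (-0.04) was 0.035 with weights and 0.075 without the 2 arrays; and Socs3 (0.09) was -0.0034 with weights. At 1 day Stat5b (-0.0047) was 0.0085 with weights and 0.013 with the replicate block. At 4 days Ptpn2 (-0.01) was 0.032 as the mean of its probe sets. With single arrays left out, values ranged at 6 h from -0.046 to 0.031 for Lepr, -0.042 to 0.024 for Ptpn1, -0.043 to 0.023 for Ptpn11 and -0.11 to 0.075 for Ptpn2. At 1 day they ranged from -0.024 to 0.020 for Stat5b, and at 4 days from -0.058 to 0.062 for Ptpn2 and -0.044 to 0.016 for Sh2b1. Averaged over times they ranged from -0.0015 to 0.022 for Stat5b and -0.012 to 0.050 for Ptpn2. The number of members above DMSO at 6 h (2) was 1 with a filter at the median, which removes Lepr and Socs3, 4 with centring, 4 after quantile normalization, 5 without the 2 arrays, and 2 to 5 with single arrays left out.

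The count of genes called at 4 days (11) was 2 without the filter, 6 with a filter at the median, 7 with centring, 5 after quantile normalization, 2 with the 2 groups alone, 23 with weights, 3 with an intensity trend and robust fit, and 0 to 20 with single arrays left out. At 1 day (60) it was 190 with weights and 18 to 87 with single arrays left out, and at 6 h (0) it was 0 to 6. The share of higher calls at 1 day, 51 of 60, was 38 of 56 with centring, 48 of 70 after quantile normalization, 123 of 190 with weights and 26 of 40 without the 2 arrays. Socs2 also lost its call at 1 day without the filter (limma, adjusted p = 0.0551) and with the 2 groups alone (adjusted p = 0.179), Serpina3n without the filter (0.0680) and with centring (0.0545), and Osmr with an intensity trend and robust fit (0.0546). Deviations of same-numbered celastrol and DMSO arrays of the same time had correlations from -0.29 to 0.29. This check did not compare arrays of different times, among them the 2 DMSO arrays that stand apart, both replicate 3. The replicate block gave 0, 71 and 10 genes at the 3 times and changed no call of a member. The causes were not tested. With 3 or 4 arrays a group the members' SE lay between 0.045 and 0.10. Differences above this range also failed, such as that of Lepr at 1 day, 0.17 ± 0.064 (limma, adjusted p = 0.414). The lack of a call therefore does not exclude differences of that size.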
